A study of Homo sapiens with 9 samples.

Results

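The 8 genes described here encode the catalytic subunits of the proteasome that exist in 2 versions and the activator that accompanies the inducible version. PSMB8, PSMB9 and PSMB10 are the inducible catalytic subunits, PSMB5, PSMB6 and PSMB7 are their constitutive counterparts, and PSME1 and PSME2 are the 2 subunits of the activator PA28. They were chosen by symbol, with earlier results of these data known, and all 8 were found among the 22295 entries of the FPKM file. FPKM is the number of fragments mapped to a transcript, divided by its length and by the fragments mapped in the library. The libraries came from U251, an established human glioblastoma cell line, after infection with a lentivirus carrying a short hairpin RNA. The 3 libraries of sh-Luci-3d carried the control hairpin against luciferase and were taken at 3 days post infection (dpi). The hairpin against PTBP1 was carried by the 3 libraries of sh-Ptbp1-3d, taken at 3 dpi, and the 3 of sh-Ptbp1-7d, taken at 7 dpi. In the study's culture methods, cells were moved at 2 dpi into neuronal induction medium, which holds N2, B27, forskolin and dorsomorphin. The study's account of the sequencing does not name the medium. If the sequenced cells were cultured in this way, those of 7 dpi had been in it for longer. PTBP1 knockdown rested on a lentiviral hairpin in 1 cell line. The 9 libraries include no control of 7 dpi. The knockdown, its duration and any time in the medium therefore cannot be told apart in a comparison with sh-Ptbp1-7d. Nothing in the labels says that the libraries of a group came from separate cultures, and p-values then measure only the spread between these libraries.

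The proteasome is the barrel-shaped protease that degrades ubiquitinated proteins. Its 20S core has 3 catalytic positions, β5 with chymotrypsin-like, β1 with caspase-like and β2 with trypsin-like activity, held in most cells by PSMB5, PSMB6 and PSMB7. In cells of the immune system, and in other cells exposed to interferon, newly made cores take in PSMB8, PSMB9 and PSMB10 at these positions instead and are then called immunoproteasomes, whose products are favoured for presentation by MHC class I. PA28 is a ring of PSME1 and PSME2 that caps the core and is itself inducible by interferon γ. The values here are of mRNA, and the subunit make-up of the particles was not measured.

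PSMB8 and PSMB9 lie next to each other in the MHC region of chromosome 6, beside the genes of the peptide transporter. On GRCh38 with the GENCODE v29 annotation, PSMB8 occupies chr6:32840717-32844703 on the minus strand and PSMB9 chr6:32844136-32859585 on the plus strand. In this annotation 139 exonic bases are common to both genes. The PSMB9 span begins upstream of the RefSeq start used below, chr6:32854192, and the common bases lie before that start. PSMB10 is at chr16:67934502-67937087, PSMB5 at chr14:23016543-23035230, PSMB6 at chr17:4796144-4798503 and PSMB7 at chr9:124353466-124415444. The PA28 genes are near neighbours on chromosome 14, PSME1 at chr14:24136158-24138967 and PSME2 at chr14:24143362-24147570. PSMB10 has 34.8% of its exonic bases in common with the annotated gene AC040162.1 on the same strand, and PSMB8 has 20.6% in common with the antisense gene PSMB8-AS1. PSMB9 has 5.66% in common with PSMB8-AS1, on the same strand. PSME2 also has processed pseudogenes. How reads of such overlapping or near-identical sequences were assigned, and whether the libraries kept the strand, is not given in the sources used here, so the levels of these genes are uncertain to that extent.

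Short promoter stretches are shown because the inducible genes are known targets of interferon-activated transcription factors, which bind 2 kinds of sequence. The core of the interferon-stimulated response element was searched as GAAANNGAA and the gamma-activated site as TTCNNNGAA, on both strands, in the RefSeq windows of GRCh38.p14 that run from 250 bases before a transcript start to 50 after it. Windows were found for 6 of the 8 genes, and not for PSMB6 and PSMB7. GAAANNGAA was found for 4 of these 6 genes, PSMB8, PSMB10, PSME1 and PSME2, while 9.86% of all 27305 genes with a window and 8.11% of all 35116 windows held it. It was found neither in the 2 windows of PSMB5 nor in that of PSMB9. The stretches below run 5′ to 3′, with matches to either motif in capitals. The first 5 go from 70 bases before the start to 20 after it, and the last is 90 bases of the upstream region of TAP1, beginning 160 bases before its start, that faces PSMB9.
PSMB8: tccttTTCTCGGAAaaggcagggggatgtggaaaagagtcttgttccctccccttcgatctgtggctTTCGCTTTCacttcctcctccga
PSMB10: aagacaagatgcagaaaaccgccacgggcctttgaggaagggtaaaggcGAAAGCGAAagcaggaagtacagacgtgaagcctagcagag
PSME1: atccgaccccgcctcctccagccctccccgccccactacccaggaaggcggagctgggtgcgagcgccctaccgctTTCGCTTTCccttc
PSME2: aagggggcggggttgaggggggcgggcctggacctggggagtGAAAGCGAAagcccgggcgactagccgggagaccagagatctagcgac
PSMB9: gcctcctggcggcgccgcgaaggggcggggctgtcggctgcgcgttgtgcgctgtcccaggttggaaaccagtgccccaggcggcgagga
TAP1: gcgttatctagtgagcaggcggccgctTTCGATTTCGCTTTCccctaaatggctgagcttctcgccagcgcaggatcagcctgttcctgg
They lie at chr6:32844028-32844117 on the minus strand, chr16:67936831-67936920 on the minus strand, chr14:24136124-24136213 on the plus strand, chr14:24146591-24146680 on the minus strand, chr6:32854122-32854211 on the plus strand and chr6:32853775-32853864 on the minus strand, in that order. The PSMB8 stretch belongs to the second of the 2 windows of that gene and also holds a match to TTCNNNGAA, a motif found in 7.66% of all windows. TAP1 and PSMB9 are transcribed away from each other from starts 488 bases apart. The capitals in the TAP1 stretch are 2 overlapping matches to GAAANNGAA, which lie between the 2 starts, 119 bases from that of TAP1 and 355 bases from that of PSMB9, and so outside the PSMB9 window. In the second PSMB5 window there were 2 matches to TTCNNNGAA. Among the other proteasome genes with a window, GAAANNGAA was found for 2 of 9 further 20S subunits, PSMA4 and PSMB4, for 1 of 18 19S subunits, PSMC2, and for 2 of 8 assembly factors, POMP and PSMG4. GAAANNGAA was found neither for PSME3, PSME4 and PSMF1 nor for PSMB11 and PSMA8. TTCNNNGAA was found for 1 of the 9, 3 of the 18 and 1 of the 8, and for PSME3 and PSMA8. Over all genes with a window, 9.38% held TTCNNNGAA, and of the inducible and PA28 genes only PSMB8 did. A match is a description of the sequence, and binding was not measured.

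**Figure D1:**
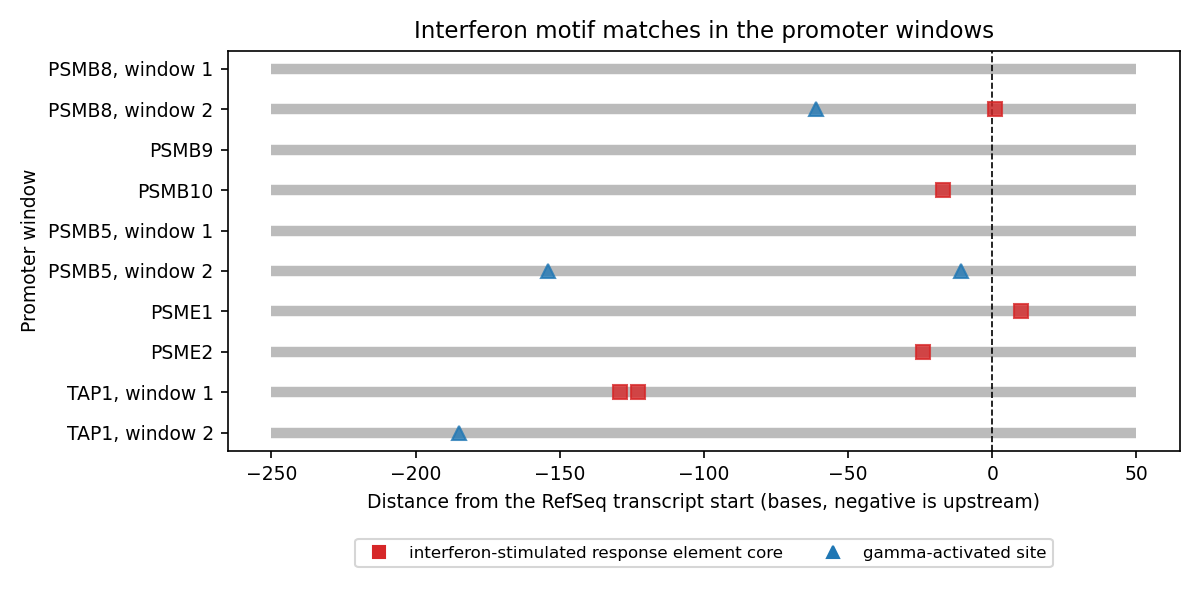
Positions of matches to 2 interferon-related motifs in the RefSeq promoter windows of the genes, with distance from the transcript start in bases on the x axis, 1 window per row, grey bars for the extent of the window, squares for the interferon-stimulated response element core and triangles for the gamma-activated site. Squares lie near the start of PSMB8 (second window), PSMB10, PSME1 and PSME2, none lies in the windows of PSMB9 and PSMB5, and the 2 overlapping ones of TAP1 lie farther upstream.

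PTBP1, the targeted gene, was at 111, 112 and 124 FPKM in sh-Luci-3d, at 66.2, 64.4 and 61.0 FPKM in sh-Ptbp1-3d and at 49.7, 50.7 and 51.0 FPKM in sh-Ptbp1-7d, lower in both knockdown groups as labelled. Whole reads could not be recovered from the deposited FPKM values, so that the depth of the libraries is unknown and counting error carries no interval here. Of the glioma and astroglial markers, VIM was between 1094 and 4488 FPKM and SOX2 between 94.6 and 149 FPKM in all 9 libraries, whereas GFAP, which marks astrocytes, did not exceed 1.15 FPKM and AQP4 did not exceed 0.0566 FPKM. Between 9 and 12 of 15 leukocyte markers, a list that includes PTPRC and CD3E, were listed at 0 in each library. One library stood apart in each group of 3 dpi. In sh-Luci-3d replicate 3, all 8 genes were higher than in the other sh-Luci-3d libraries. Their summed FPKM was 757 there, against 581 and 608 in replicates 1 and 2. In sh-Ptbp1-3d replicate 3, the neuronal gene STMN2 was at 11.5 FPKM and DCX at 2.14 FPKM, whereas STMN2 was listed at 0 in the other 8 libraries. The number of the 8 genes past the thresholds is therefore given with and without each of these libraries.

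The inducible subunits and the PA28 genes were higher at 7 dpi, and the constitutive subunits were lower. PSMB9 rose from about the middle of the distribution of expressed and unexpressed genes to near its top. Tests were made with limma on log2(FPKM + 0.1) over the 15551 genes whose mean reached 0.1 FPKM, with all 9 libraries in 1 model and Benjamini-Hochberg adjustment over all genes tested. Calls were made at an FDR below 0.01 in comparisons with sh-Ptbp1-7d and below 0.05 between the groups of 3 dpi, and fold changes are on this log2 scale, which understates those of low genes. From 3 to 7 dpi of the knockdown, sh-Ptbp1-7d against sh-Ptbp1-3d, 5 of the 8 genes were higher past the FDR and with a fold change above 2, where 8.31% of all genes tested were. The same 5 were the ones higher past the FDR alone, a call made for 20.3% of all genes, and 2 of the 8 were lower past the FDR, a call made for 15.5%. None of the 8 had overlapping libraries in these 2 groups, which was the case for 62.3% of all genes. The counts were 5 and 2 without sh-Ptbp1-3d replicate 3 as well. Without sh-Luci-3d replicate 3, which enters this comparison through the estimate of the spread, all 8 passed the FDR and the 5 still passed the fold change.

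PSMB8, which takes the β5 position, was measured at 35.1, 43.3 and 51.1 FPKM in sh-Luci-3d, at 42.7, 39.9 and 43.6 FPKM in sh-Ptbp1-3d and at 97.6, 95.2 and 98.6 FPKM in sh-Ptbp1-7d. The libraries of 7 dpi lay close together and above all 6 libraries of 3 dpi, which overlapped with one another. Relative to sh-Ptbp1-3d, the log2 fold change was 1.20 with a standard error of 0.116 (limma, adjusted p = 1.17e-05), a 2.30-fold rise.

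PSMB9, which takes the β1 position, stood at 2.96, 3.39 and 4.87 FPKM in sh-Luci-3d. In sh-Ptbp1-3d it stood at 2.92, 4.27 and 5.09 FPKM. At 7 dpi it stood at 89.9, 93.0 and 71.8 FPKM. The 2 groups of 3 dpi covered nearly the same range, and each library of 7 dpi was far above it. The log2 fold change was 4.37 with a standard error of 0.217 (limma, adjusted p = 9.64e-08), a 20.7-fold rise. By group mean, PSMB9 was above 56.9% of the 19932 gene symbols in sh-Ptbp1-3d and above 96.8% of them in sh-Ptbp1-7d, and its fold change was above that of 99.8% of all genes tested.

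PSMB10, which takes the β2 position, was at 21.4, 23.6 and 37.9 FPKM in sh-Luci-3d, at 32.0, 31.2 and 30.1 FPKM in sh-Ptbp1-3d and at 70.5, 68.2 and 62.7 FPKM in sh-Ptbp1-7d. The control group was the most dispersed, with replicate 3 above the sh-Ptbp1-3d libraries and the other two below them. The log2 fold change relative to sh-Ptbp1-3d was 1.11 with a standard error of 0.172 (limma, adjusted p = 0.00035).

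Among the 3 inducible subunits, the order of the levels per length changed between the days. In sh-Luci-3d and sh-Ptbp1-3d the group means followed the order PSMB8, PSMB10, PSMB9, and in sh-Ptbp1-7d the order PSMB8, PSMB9, PSMB10. The libraries of PSMB8 and PSMB9 did not overlap at 7 dpi, and neither did those of PSMB9 and PSMB10, whose nearest values were 71.8 and 70.5 FPKM. In the sh-Luci-3d group the ranges of PSMB8 and PSMB10 overlapped. The ratio of PSMB9 to PSMB8 was 0.0860 ± 0.00862 (SD, n = 3) in sh-Luci-3d, 0.0973 ± 0.0255 in sh-Ptbp1-3d and 0.876 ± 0.131 in sh-Ptbp1-7d. The difference between the 3 libraries of 7 dpi and the 6 of 3 dpi was 3.27 on the log2 scale, with p = 0.0238 in an exact permutation test, the smallest that 3 against 6 allows, and an adjusted p of 0.0833 over 7 ratios between genes of the same role, which were chosen after the values were seen. For the ratio of PSMB10 to PSMB8 the difference was 0.021 (exact permutation p = 0.881).

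**Figure D2:**
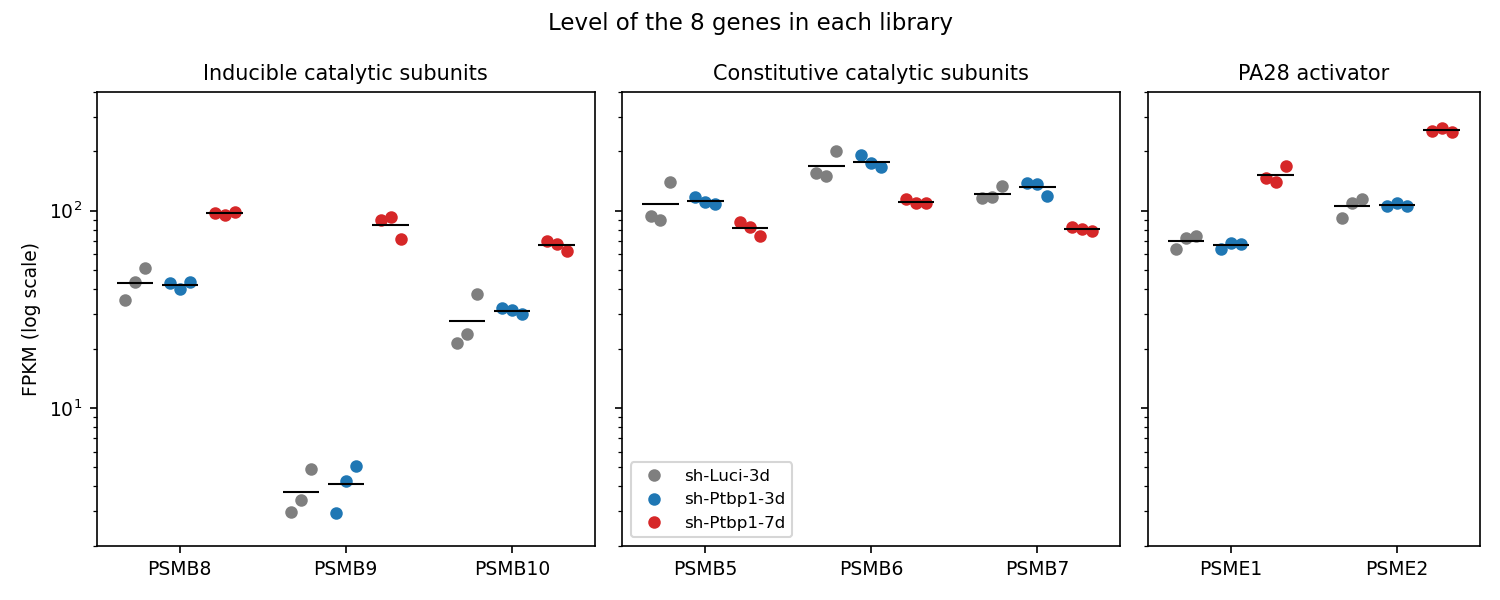
Level in FPKM on a log scale of the 8 genes in each of the 9 libraries, with points for libraries, black lines for group means and colours for the 3 groups. The 3 libraries of sh-Ptbp1-7d lie above those of 3 dpi for the inducible subunits and PA28 and below them for the constitutive subunits, and PSMB9 moves from 2.92 to 5.09 FPKM at 3 dpi to between 71.8 and 93.0 FPKM.

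PSMB5, the constitutive β5 subunit, was at 94.4, 89.5 and 139 FPKM in sh-Luci-3d, at 118, 111 and 108 FPKM in sh-Ptbp1-3d and at 87.9, 82.3 and 74.3 FPKM in sh-Ptbp1-7d. The libraries of 7 dpi were the lowest, but the gap to the control was small, between 87.9 and 89.5 FPKM. Relative to sh-Ptbp1-3d, the log2 fold change was -0.46 with a standard error of 0.146 and missed the threshold (limma, adjusted p = 0.0218). Without sh-Luci-3d replicate 3 the standard error was 0.0695 and the adjusted p 0.00035, and in a fit of these 2 groups alone the adjusted p was 0.000821.

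PSMB6, the constitutive β1 subunit, had the highest level of the 3 in each group. It was at 155, 149.7 and 201 FPKM in sh-Luci-3d, at 192, 175 and 166 FPKM in sh-Ptbp1-3d and at 114, 109 and 109 FPKM in sh-Ptbp1-7d. All 3 libraries of 7 dpi were below every library of 3 dpi. The log2 fold change against sh-Ptbp1-3d was -0.68 with a standard error of 0.110 (limma, adjusted p = 0.000473).

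PSMB7, the constitutive β2 subunit, was at 115, 117 and 133 FPKM in sh-Luci-3d, at 138, 137 and 119 FPKM in sh-Ptbp1-3d and at 82.5, 80.8 and 79.0 FPKM in sh-Ptbp1-7d. Here too the 7 dpi libraries were the lowest, and their spread was narrow. The log2 fold change against sh-Ptbp1-3d was -0.70 with a standard error of 0.0848 (limma, adjusted p = 6.22e-05). At 7 dpi the ranges of PSMB5 and PSMB7 overlapped, so that their order could not be given. The ratio of PSMB7 to PSMB6 was 0.729 ± 0.0621 (SD, n = 3) in sh-Luci-3d and 0.729 ± 0.00925 in sh-Ptbp1-7d. Against the 6 libraries of 3 dpi, the ratios of PSMB6 and of PSMB7 to PSMB5 both differed by -0.22 on the log2 scale (exact permutation p = 0.0476 and 0.0714, adjusted p = 0.111 and 0.125 over the 7 ratios), which did not pass the correction.

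The 2 PA28 genes moved by similar amounts. PSME1, the α subunit, was at 63.8, 72.4 and 74.6 FPKM in sh-Luci-3d, at 64.1, 68.4 and 67.9 FPKM in sh-Ptbp1-3d and at 147, 139 and 169 FPKM in sh-Ptbp1-7d. PSME2, the β subunit, was at 92.0, 109 and 115 FPKM in sh-Luci-3d, at 106, 109.8 and 105 FPKM in sh-Ptbp1-3d and at 254, 262 and 252 FPKM in sh-Ptbp1-7d. In both genes the groups of 3 dpi overlapped and the libraries of 7 dpi stood clear of them. Relative to sh-Ptbp1-3d, the log2 fold changes were 1.18 with a standard error of 0.0914 for PSME1 and 1.26 with a standard error of 0.0864 for PSME2 (limma, adjusted p = 2.36e-06 and 9.57e-07). PSME2 had the highest FPKM of the 8 genes at 7 dpi. The ratio of PSME2 to PSME1 was 1.49 ± 0.0478 (SD, n = 3) in sh-Luci-3d, 1.60 ± 0.0520 in sh-Ptbp1-3d and 1.70 ± 0.196 in sh-Ptbp1-7d, and its difference between the days was 0.13 on the log2 scale (exact permutation p = 0.167).

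Setting each inducible subunit against the one it replaces gives a ratio within a library that does not depend on how the library was scaled. The ratio of PSMB8 to PSMB5 was 0.407 ± 0.0664 (SD, n = 3) in sh-Luci-3d, 0.375 ± 0.0259 in sh-Ptbp1-3d and 1.20 ± 0.113 in sh-Ptbp1-7d. By FPKM, PSMB8 thus went from the lower to the higher of the pair. Such an order rests on the lengths used and on how overlapping reads were assigned, which the sources used here do not give. The ratio of PSMB9 to PSMB6 was 0.0220 ± 0.00264 in sh-Luci-3d, 0.0234 ± 0.00773 in sh-Ptbp1-3d and 0.766 ± 0.0992 in sh-Ptbp1-7d. For PSMB10 to PSMB7 it was 0.224 ± 0.0535, 0.238 ± 0.0133 and 0.830 ± 0.0329 in the same order. PSMB9 and PSMB10 thus approached their counterparts at 7 dpi and, by FPKM, remained below them. Against the 6 libraries of 3 dpi, the ratio in sh-Ptbp1-7d was 3.07-fold higher for PSMB8 to PSMB5, 34.3-fold higher for PSMB9 to PSMB6 and 3.63-fold higher for PSMB10 to PSMB7, differences of 1.62, 5.10 and 1.86 on the log2 scale. In each pair the 3 libraries of 7 dpi were above all 6, with a two-sided exact permutation p of 0.0238, the smallest possible here. All 3 ratios were at this floor, so adjustment over the 3 ratios gave the same 0.0238 and added no support. The ratios were chosen with earlier results of these data known. Separation was common among single genes, of which 62.3% were without overlap against sh-Ptbp1-3d and 55.9% against sh-Luci-3d. The share over all pairs of genes was not computed. Against sh-Ptbp1-3d alone the ratios differed by 1.67, 5.08 and 1.81 on the log2 scale. There an exact permutation test of 3 libraries against 3 cannot go below p = 0.1. Leaving out 1 library of 7 dpi gave an exact permutation p of 0.0714 in each pair, which is the smallest that 2 against 6 allows.

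**Figure D3:**
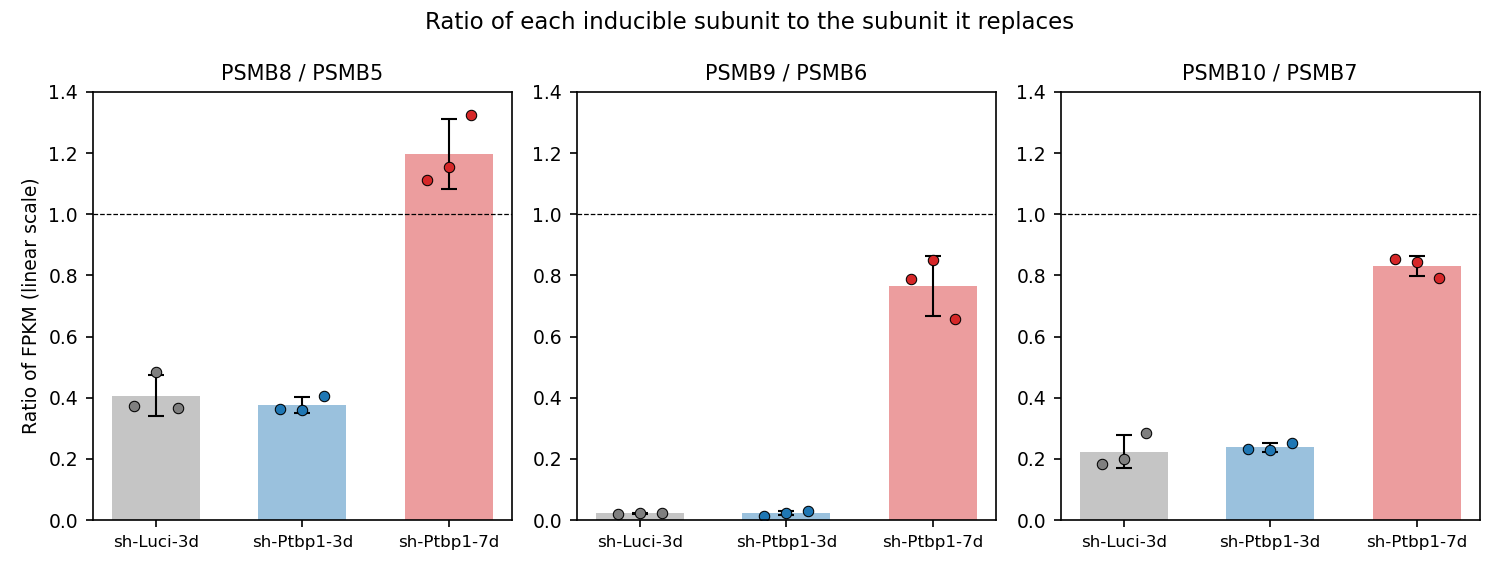
Ratio of the FPKM of each inducible catalytic subunit to that of its constitutive counterpart on a linear scale, with bars for group means, error bars for the SD of 3 libraries, points for libraries and a dashed line at equal levels. The mean ratio of PSMB8 to PSMB5 is 1.20 in sh-Ptbp1-7d, above the line, and those of PSMB9 to PSMB6 and PSMB10 to PSMB7 are 0.766 and 0.830, below it.

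As a share of the FPKM of a pair, the inducible subunit made up 27.3% ± 1.35 (SD, n = 3) of PSMB8 and PSMB5, 2.29% ± 0.739 of PSMB9 and PSMB6 and 19.2% ± 0.862 of PSMB10 and PSMB7 in sh-Ptbp1-3d. In sh-Ptbp1-7d these shares were 54.4% ± 2.30, 43.3% ± 3.25 and 45.4% ± 0.991. The 3 pairs, which differed widely at 3 dpi, were thus closer to each other at 7 dpi. Over the 6 catalytic genes together, the inducible share was 15.7% ± 1.45 in sh-Luci-3d, 15.5% ± 1.02 in sh-Ptbp1-3d and 47.7% ± 0.745 in sh-Ptbp1-7d. The single libraries ranged from 14.0% to 16.7% at 3 dpi and from 47.0% to 48.5% at 7 dpi. The summed FPKM of the 6 genes was at 473 ± 81.8, 498 ± 26.7 and 522 ± 24.2 in the 3 groups, whose ranges overlapped. In bulk samples like these, a change in the kind or number of cells and a change in the RNA of each cell cannot be told apart.

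The comparison of sh-Ptbp1-7d with sh-Luci-3d shares its 7 dpi libraries with the one above and is not independent of it. In it, 5 of the 8 genes were again higher past the FDR and with a fold change above 2 (8.93% of all genes tested), no further gene was higher past the FDR alone (20.6% of all genes), 2 were lower past the FDR (15% of all genes) and all 8 were without overlap (55.9% of all genes). The 5 were again the inducible subunits and the PA28 genes, and the 2 were PSMB6 and PSMB7. The counts were the same without sh-Luci-3d replicate 3 and without sh-Ptbp1-3d replicate 3. The log2 fold changes were 1.18 for PSMB8, 4.49 for PSMB9, 1.32 for PSMB10, 1.11 for PSME1 and 1.29 for PSME2 (limma, adjusted p from 8.13e-08 for PSMB9 to 9.76e-05 for PSMB10). PSMB6 and PSMB7 were both at -0.59 (limma, adjusted p = 0.00109 and 0.000202). PSMB5 was at -0.38 and did not pass (limma, adjusted p = 0.0525), and without sh-Luci-3d replicate 3 it was at -0.18.

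At matched days no difference between knockdown and control was detected in these genes. When sh-Ptbp1-3d was set against sh-Luci-3d, 0 of the 8 genes passed an FDR of 0.05 in limma, and 0 had an unadjusted p below 0.05. Over all genes tested, 0.0322% passed this FDR. The libraries of the 2 groups overlapped for all 8, and 10.8% of all genes were without overlap. With shares this low over all genes, neither count sets the 8 apart. The log2 fold changes lay between -0.07 for PSME1 and 0.22 for PSMB10, and the lowest adjusted p was 0.812. Without sh-Luci-3d replicate 3, PSMB10 was at 0.47 and passed the threshold (limma, adjusted p = 0.0105), so that the count became 1, and without sh-Ptbp1-3d replicate 3 it was 0. The differences in the 3 ratios were -0.11 for PSMB8 to PSMB5, 0.042 for PSMB9 to PSMB6 and 0.11 for PSMB10 to PSMB7 on the log2 scale (exact permutation p = 0.5, 0.8 and 0.5). PTBP1 itself differed between these groups by -0.85 on the log2 scale (limma, adjusted p = 0.00314). These 3 libraries against 3 could not show small differences in the more dispersed genes, and the standard error for PSMB9 was 0.217.

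The other genes of the proteasome were examined to see whether the change extended beyond the catalytic positions. Of the 11 further subunits of the 20S core, 7 were lower, 1 was higher and 3 did not pass the test in sh-Ptbp1-7d relative to sh-Ptbp1-3d, with a median log2 fold change of -0.41 against 0.092 over all genes tested, of which 15.5% were lower and 20.3% higher past the FDR. PSMA7 had the largest change at -0.81, followed by PSMB3 at -0.75 and PSMB4 at -0.65, and PSMA5 was the one that rose, by 0.36. The constitutive catalytic subunits, between -0.46 and -0.70, lay within this range. In the 19S cap, which recognises and unfolds ubiquitinated substrates, 7 of 19 genes were lower, against the same 15.5% of all genes, and 12 did not pass, with a median of -0.30. PSMD2, a scaffold of the cap, was at -0.82, the ATPase PSMC3 at -0.69 and PSMD1 at -0.68. No gene of these 11 and 19 changed by more than 2-fold. Against sh-Luci-3d, 7 of the 11 and 8 of the 19 were lower and none was higher, where 15% of all genes were lower and 20.6% higher.

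The inhibitor PSMF1 was higher by 0.47 (limma, adjusted p = 0.00606), while the nuclear activator PSME3, a relative of PSME1 and PSME2, was at -0.16 and PSME4 at -0.26, neither past the test. Of 9 assembly factors, PSMD9 at -0.68 and PSMG1 at -0.46 were lower, against 15.5% of all genes, and 7 did not pass, among them POMP, the maturation factor of the core, at -0.24 (limma, adjusted p = 0.022). The thymus-specific catalytic subunit PSMB11 was listed at 0 in all 9 libraries, and PSMA8, the α subunit of the testis, did not exceed 0.0396 FPKM.

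**Figure D4:**
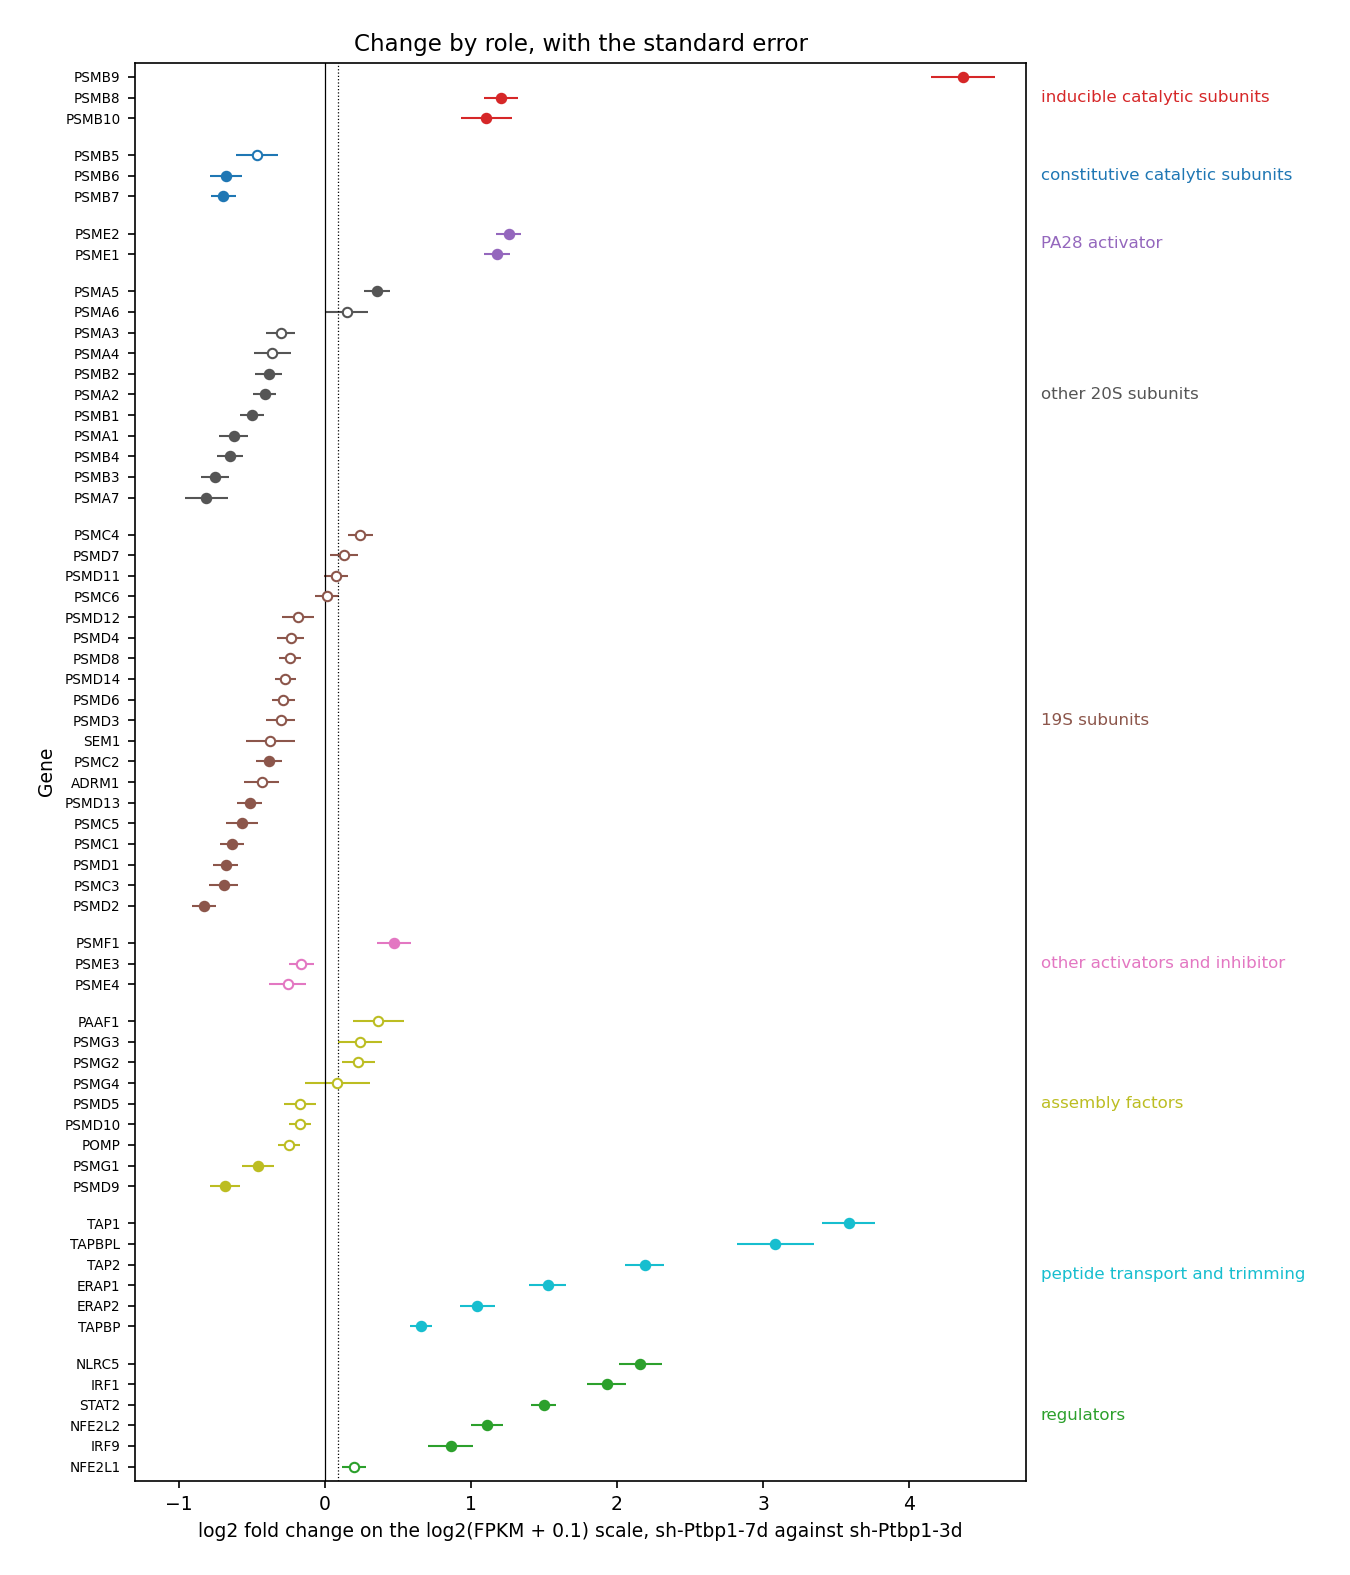
Log2 fold change in sh-Ptbp1-7d relative to sh-Ptbp1-3d of the catalytic, PA28 and other proteasome genes, peptide transport and trimming genes and regulators, on the log2(FPKM + 0.1) scale with limma's standard error, filled points for genes past an FDR of 0.01, a solid line at 0 and a dotted line at the median of all genes, 0.092. The inducible subunits and PA28 lie above 1, PSMB9 at 4.37, while the constitutive subunits and most genes of the core and cap lie below 0.

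Downstream of the proteasome, peptides are carried into the endoplasmic reticulum by TAP1 and TAP2, trimmed by ERAP1 and ERAP2 and loaded on MHC class I with the help of TAPBP and TAPBPL. All 6 genes were higher at 7 dpi, again relative to sh-Ptbp1-3d, with a median log2 fold change of 1.86, where 20.3% of all genes tested were higher past the FDR. TAP1, which shares its upstream region with PSMB9, was at 20.2, 32.8 and 36.0 FPKM in sh-Luci-3d, at 27.3, 26.9 and 33.3 FPKM in sh-Ptbp1-3d and at 359, 359.8 and 329.7 FPKM in sh-Ptbp1-7d. Its libraries followed the same pattern as those of PSMB9, and a rise of 3.59 on the log2 scale (limma, adjusted p = 1.13e-07). TAPBPL rose by 3.08 from a level below 0.4 FPKM at 3 dpi, and TAP2 rose by 2.19.

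Among 6 regulators of the 2 gene groups, 5 were higher past the FDR, against 20.3% of all genes tested, and 1 did not pass. STAT2 and IRF9 carry the interferon signal to DNA, IRF1 is induced by it and drives the inducible subunits, and NLRC5 is the transactivator of MHC class I genes. The sh-Ptbp1-3d libraries held NLRC5 at 9.48, 10.6 and 9.83 FPKM, compared with 46.4, 50.5 and 38.4 FPKM at 7 dpi, a rise of 2.16 on the log2 scale (limma, adjusted p = 8.92e-07). IRF1 rose by 1.93 and STAT2 by 1.50. NFE2L1, which raises the transcription of proteasome genes when the protease is inhibited, was at 0.20 and did not pass (limma, adjusted p = 0.0664), and NFE2L2, which acts on the same genes under oxidative stress, rose by 1.11. At 3 dpi no gene of these lists passed the test of knockdown against control.

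Markers of other cells were summed in each library to set them beside these changes. The summed FPKM of the 15 leukocyte markers, cells that hold immunoproteasomes at rest, was between 0.696 and 1.04 at 3 dpi and between 0.859 and 1.35 at 7 dpi, and 1 marker, CD14, exceeded 1 FPKM, in 1 library. PTPRC, the leukocyte marker CD45, did not exceed 0.0903 FPKM. The 3 erythroid markers summed to at most 0.190 FPKM. The summed FPKM of the 8 glioma and astroglial markers was between 4459 and 4879 at 3 dpi and between 1392 and 1516 at 7 dpi, most of it VIM, which fell by 1.91 on the log2 scale relative to sh-Ptbp1-3d (limma, adjusted p = 9.79e-08). CD44 fell too, by 1.41, whereas the glutamate transporter gene SLC1A3 rose by 1.89 (limma, adjusted p = 1.12e-06 and 9.32e-06). SOX2 was at 0.22 relative to sh-Ptbp1-3d and did not pass, and rose by 0.46 relative to sh-Luci-3d (limma, adjusted p = 0.0733 and 0.00184). The 6 neuronal markers summed to between 264 and 353 FPKM at 3 dpi and to between 154 and 162 FPKM at 7 dpi, most of it TUBB3, which fell by 1.42, while MAP2, which marks neuronal dendrites, rose by 0.94 (limma, adjusted p = 6.91e-07 and 0.00058). The part of these shifts in the changes of the proteasome genes was not tested.

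The genes whose levels ran most closely with each inducible subunit were found by Pearson's r of log2(FPKM + 0.1) over the 9 libraries, among 11332 genes whose mean reached 1 FPKM. The libraries fall into those of 3 dpi and those of 7 dpi, which sets most of each r, and 718, 978 and 471 genes had an r above 0.95 with PSMB8, PSMB9 and PSMB10. For PSMB8 the nearest were IFI35, SHFL, BST2, AGTRAP and ISG15 (r from 0.995 to 0.999). IFI35, BST2 and ISG15 are examples of interferon-stimulated genes, and the other genes named in this paragraph were not sorted by that trait. For PSMB9 they were TMEM132A, PDE9A, SEZ6L2, APOL1 and MDGA1 (r from 0.996 to 0.998). For PSMB10 they were ADRA1D, EIF1AD, IGFBP2, PHC2 and BEX3 (r from 0.992 to 0.996). No gene was among the nearest 5 of 2 subunits.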

How the data were processed

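RNA of U251 cells was sequenced on Illumina HiSeq in 9 libraries, 3 each of sh-Luci-3d, of sh-Ptbp1-3d and of sh-Ptbp1-7d as labelled. After read filtering and comparison to a reference, the authors deposited FPKM values of 19932 gene symbols and 2363 assembled loci. The submitters' processing notes name HISAT2 and GRCh38, and the counting program, annotation and versions are not given in the sources used here. The deposited coordinates of the assembled loci are another kind of value and were used here only to check the build, since 49.6% of 43315 assembled exons equalled a GENCODE v29 exon, and none of the loci overlapped the 8 genes.

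From the FPKM values, log2(FPKM + 0.1) was fitted with limma 3.58.1 in R 4.3.3, as a model of 3 groups with an intensity trend, after leaving out genes with a mean below 0.1 FPKM. Benjamini-Hochberg adjustment covered the 15551 genes left. Ratios were computed per library without a pseudocount and tested over libraries with exact two-sided permutation tests (scipy 1.17.1, Python 3.11.15). The fit was tested on data simulated with normal noise on the log2 scale, the form that limma assumes. This checks the running of the fit and not whether that form holds for the FPKM values. Figures were drawn with matplotlib 3.10.9. The FDR and fold thresholds are those of the study's methods, and for sh-Ptbp1-7d against the control, which these do not cover, that of the other comparison with 7 dpi was used.

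The genes, the gene lists, the motifs and the tests were chosen with earlier results of these data known. The genes named are the 8, PTBP1, the 2 to 4 listed genes of a role with the largest change relative to sh-Ptbp1-3d, and for each inducible subunit the 5 with the highest r. PSMA5, PSME3, PSME4, POMP, NFE2L1, NFE2L2, PSMA8, PSMB11 and the single marker genes are listed genes named after their values were seen. Alternatives were pseudocounts of 1 and 0.01, no filter, a minimum mean of 1 FPKM, TPM, median-ratio and quantile scaling, a fit of 2 groups, no trend, no assembled loci, a replicate block and leaving out each library. One gene of the lists is not reported here. Promoter sequences were those of RefSeq, GRCh38.p14.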

Additional observations from a re-analysis of the deposited data

How the results depend on the processing

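In the comparisons with sh-Ptbp1-7d, each of the 8 genes kept its direction under all 20 alternatives of the fit, and the count past the FDR and a fold change of 2 stayed at 5. The call of PSMB5 against sh-Ptbp1-3d changed under 2 of them, the fit of these groups alone and that without sh-Luci-3d replicate 3, where 8 genes passed the FDR. Over all genes tested, the median log2 fold change relative to sh-Ptbp1-3d was 0.092, or 0.19 with TPM and -0.01 with quantile normalization. With a pseudocount of 1, the ratio of PSMB9 to PSMB6 rose by 4.78 rather than 5.12 against sh-Luci-3d, by construction of the pseudocount. Leaving out 1 library gave differences against the 6 libraries of 3 dpi from 1.54 to 1.68 for PSMB8 to PSMB5, 4.99 to 5.21 for PSMB9 to PSMB6 and 1.80 to 1.93 for PSMB10 to PSMB7, with exact permutation p above 0.05 where a library of 7 dpi was left out, since fewer libraries allow no smaller p.

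Between the groups of 3 dpi the directions were not stable. Leaving out 1 library gave from 0 to 1 genes past the FDR, and log2 fold changes from -0.16 to 0.11 for PSMB8, -0.050 to 0.34 for PSMB9, -0.031 to 0.29 for PSMB5 and -0.062 to 0.097 for PSME2, where quantile normalization also gave -0.036. The ratio differences ran from -0.18 to 0.022 for PSMB8 to PSMB5, -0.18 to 0.32 for PSMB9 to PSMB6 and -0.011 to 0.30 for PSMB10 to PSMB7. Of the 7 gene values and 5 ratio differences that reversed, those not given above were PSMB8 at 0.018 without sh-Ptbp1-3d replicate 2, PSMB9 at -0.027 without sh-Luci-3d replicate 1, and PSMB9 to PSMB6 at -0.058 and -0.018 without sh-Luci-3d replicate 1 and sh-Ptbp1-3d replicate 2. The cause was not tested.

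The labels do not say whether the replicate numbers pair the samples. Deviations from the group means correlated between -0.0317 and 0.0512 for libraries of the same number. For libraries of different numbers they correlated between -0.0729 and 0.0608. No pairing was seen, and 3 libraries per group cannot exclude one. With a replicate block, 7 genes passed the FDR in each comparison with sh-Ptbp1-7d and 0 between the groups of 3 dpi, and the ratio differences against sh-Ptbp1-3d were 1.67, 5.08 and 1.81, so that the block changed no call. The depth of the libraries is unknown, which limits what can be said of the low values of PSMB9 at 3 dpi.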
